A study of Mus musculus with 2 samples.

Results

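The 10 genes described here lead or fall with gamma-delta T cells in the spinal cord of mice with experimental autoimmune encephalomyelitis (EAE). They are 4 constant segments of the gamma-delta T cell receptor, Trdc, Trgc1, Trgc2 and Trgc4, and 6 other genes, 5830411N06Rik, Actn2, Abi3bp, Blk, Tmem176a and Tmem176b. They were chosen from 28482 genes by measured values: by their level in the gamma-delta T cell cluster and by their lower level over all cells of inhibitor-treated mice. Those 2 sets of values are therefore given as a description, with no test, and support nothing.

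In EAE, immunisation brings on an autoimmune attack on brain and spinal cord. Leukocytes and microglia, collected as CD45+ cells, came from spinal cords of C57BL/6 mice taken 15 days after induction. All 4 mice had EAE. The inhibitor group was 2 mice given an inhibitor (name, dose and schedule not given in the sources used here), and the untreated group was 2 mice without it. Each mouse had its own antibody hashtag and all were pooled on 1 BD Rhapsody run, so the mice share 1 library, and 0 of its cell numbers occurred under 2 hashtags. No uninduced mouse and no sorted gamma-delta T cells were analysed here.

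Gamma-delta T cells carry a receptor of a gamma and a delta chain in place of the alpha and beta chains of other T cells. The variable segments differ from cell to cell, while the constant segment is read in every cell that transcribes the rearranged locus, so Trdc and the Trgc genes mark the lineage. In mice, 1 set of these cells is programmed in the thymus for IL-17 under RORγt and Sox13 and is an early source of IL-17 in EAE; another makes interferon gamma. The matrix counts each constant segment as its own gene.

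After filtering, 19256 cells remained, 5473 and 4915 from inhibitor-treated mice and 4317 and 4551 from untreated mice. Their counts summed to 62192551 and 58419380 in inhibitor-treated mice and to 49312253 and 53744562 in untreated mice, with a median of 8250 to 8618 counts per cell. The cells formed 25 clusters, and 1 of these, with 490 cells, was named gamma-delta T cells from its markers. Trdc was counted in 82.2% of its cells, Trac, the constant segment of the alpha chain, in 38.6% (10.7% of neutrophils), and Ncr1, an NK cell receptor, in 0%. Of the 10 genes, 9 were among the 10 genes with the largest fold in that cluster. Trdc, Trgc1, Trgc2, Trgc4, 5830411N06Rik and Blk were themselves on the marker list that named it, so their level there supports nothing. The cluster held 73 and 53 cells of inhibitor-treated mice and 155 and 209 cells of untreated mice. Of all kept cells, these were 1.33% and 1.08% in inhibitor-treated mice and 3.59% and 4.59% in untreated mice. Such shares depend on the other classes. Neutrophils made up 62.5% and 37.5% of kept cells in inhibitor-treated mice and 24.3% and 19.0% in untreated mice. CD4 T cells numbered 601 and 1299 in inhibitor-treated mice and 1116 and 1652 in untreated mice.

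The 3 gamma constant genes among the 10 lie within 138654 bases of chromosome 13 (GRCm38), Trgc1 and Trgc4 on the forward strand and Trgc2 on the reverse strand. Trgc1 spans chr13:19214103-19217024, Trgc2 chr13:19304649-19307551 and Trgc4 chr13:19344558-19352756. Trdc, the delta constant gene, lies on chromosome 14 at chr14:54142851-54148868, on the forward strand. Because the levels of Trgc1, Trgc2 and Trgc4 depend on how well a read can be told apart between them, the first 60 coding bases of each are shown as the GENCODE transcripts have them, with capitals where a base is unlike Trgc1.
Trgc1: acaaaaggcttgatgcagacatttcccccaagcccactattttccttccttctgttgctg
Trgc2: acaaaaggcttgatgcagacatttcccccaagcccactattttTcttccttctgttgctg
Trgc4: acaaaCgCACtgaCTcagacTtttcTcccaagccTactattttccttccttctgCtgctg
Trgc2 differed from Trgc1 at 1 of these 60 bases and Trgc4 at 10. Over the whole coding sequence, Trgc1 and Trgc2 were 94.6% identical, and Trgc1 and Trgc4 69.9%. Of 875 stretches of 50 bases in the Trgc1 transcript, 157 also occurred in Trgc2, 154 in Trgc3 and 0 in Trgc4. Over the last 300 bases of the transcripts, Trgc1 was 91.1% identical to Trgc2, 45.5% to Trgc3 and 52.3% to Trgc4. Where the reads fall along these transcripts is not known here. Trgc3, another gamma constant gene, between Trgc1 and Trgc2, had 4.75 and 7.39 CPM in gamma-delta T cells of inhibitor-treated mice and 17.7 and 7.70 CPM in those of untreated mice. Reads could thus be split between Trgc1, Trgc2 and Trgc3 by the authors' counting, and the levels of Trgc1 and Trgc2 are uncertain to that extent, while Trgc4 shares no stretch of that length with Trgc1.

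Levels are given in CPM, a gene's count over all cells of a class in 1 mouse divided by the class sum and multiplied by 1000000. CPM is not scaled by gene length, so levels are compared between classes and mice but not between genes. Trdc had 937 and 959 CPM in gamma-delta T cells of inhibitor-treated mice, against 828 and 968 CPM in those of untreated mice. Across the 12 classes with at least 30 cells in every mouse, all 10 genes had their highest mean in gamma-delta T cells. For 9 of the 10, the lowest mouse in gamma-delta T cells lay above the highest mouse of the next class; the exception was Trgc4. The median gamma-delta T cell had counts of 6 of the 10 genes, and 81.4% of these cells had 5 or more, whereas the median in every other class was 0 or 1.

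**Figure D1:**
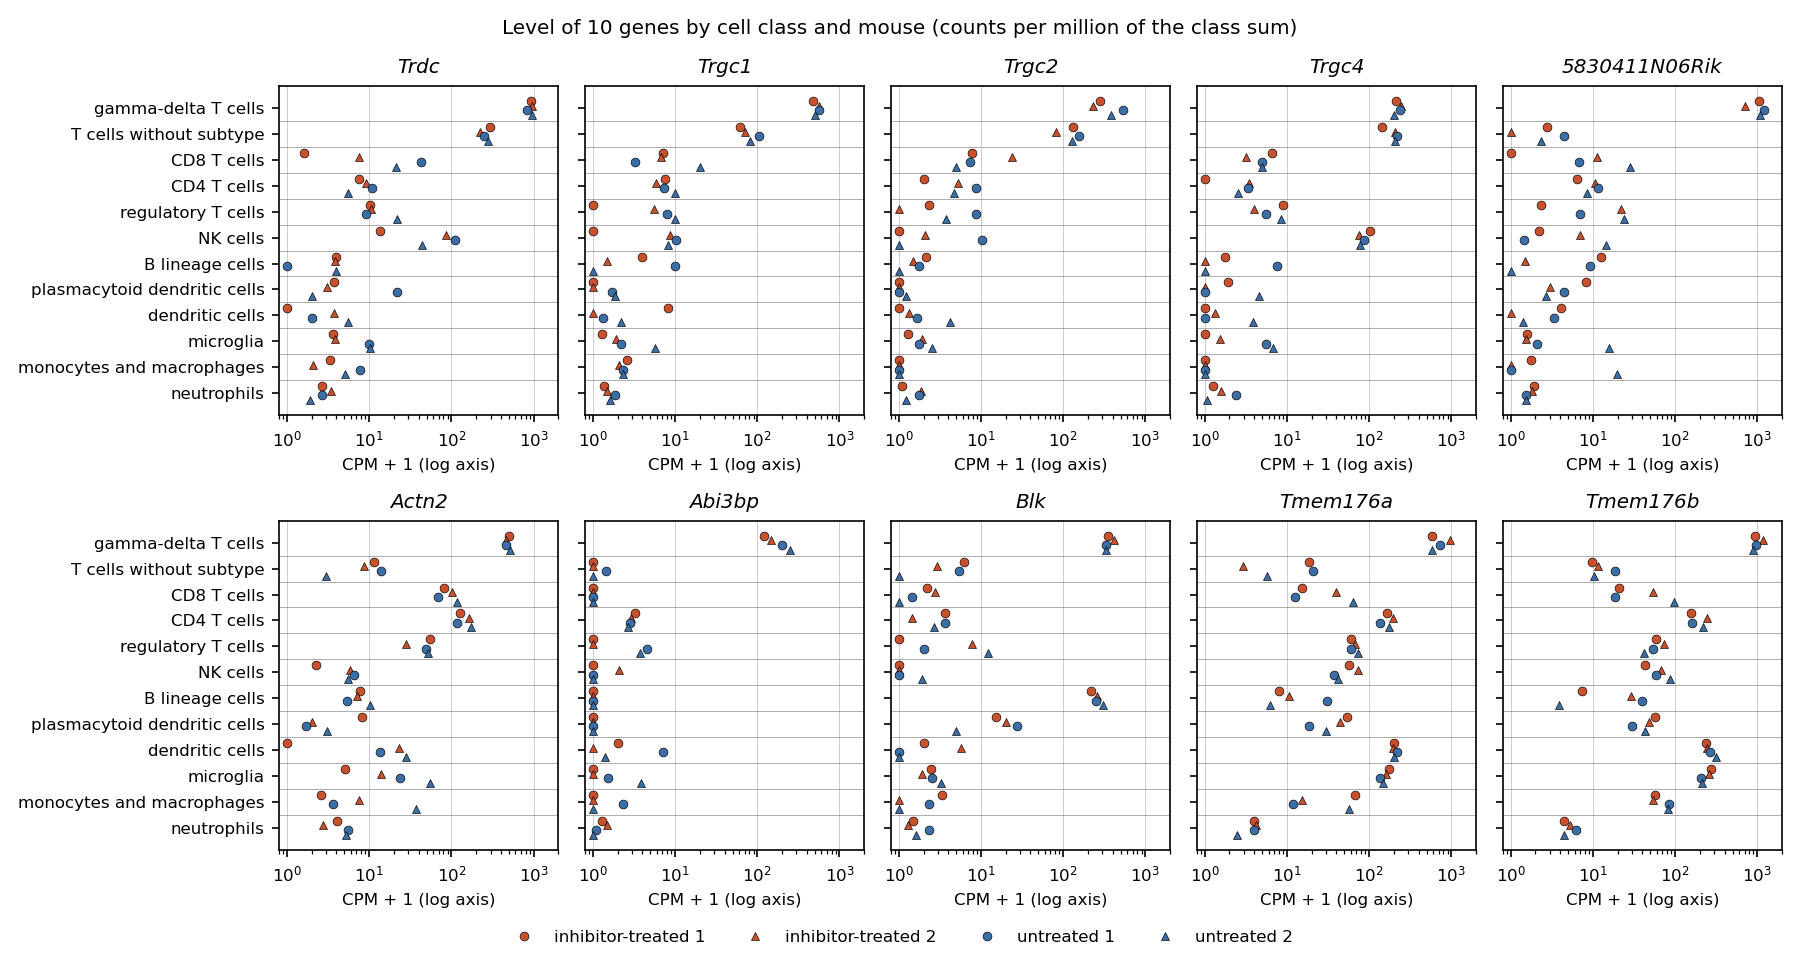
Level of each of the 10 genes (CPM + 1, log axis) in 12 cell classes, with 1 point per mouse, inhibitor-treated in orange above untreated in blue. All genes are highest in gamma-delta T cells, Trgc4 reaches like levels in T cells without subtype, and Blk, Tmem176a and Tmem176b are also high outside T cells.

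Neutrophils, which lack these receptors, set the background. They held between 0 and 5.3 CPM of any of the 10 genes in any mouse, and between 0.139% and 2.76% of their cells had a count. Among gamma-delta T cells, between 37.3% (Abi3bp) and 82.2% (Trdc) of cells had a count. The median count per cell was 6519 and 8923 in gamma-delta T cells of inhibitor-treated mice and 7514 and 7039 in those of untreated mice. In neutrophils it was 8724.5 and 8852 in inhibitor-treated mice and 8630 and 10458 in untreated mice.

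The receptor genes had a second class in common. T cells without subtype, a cluster of 556 cells led by Klra6, Xcl1 and Cd160, contained 294 and 223 CPM of Trdc in inhibitor-treated mice and 247 and 280 CPM in untreated mice. Trdc was counted in 23.2% of these cells, against 1.70% of neutrophils, and 18.2% had Trdc together with a Trgc gene. Trgc4 reached 142 and 205 CPM there in inhibitor-treated mice, against 215 and 206 CPM in untreated mice. In gamma-delta T cells Trgc4 had 214 and 240 CPM in inhibitor-treated mice and 237 and 200 CPM in untreated mice, so the mice of these 2 classes overlapped. Trgc1 had 60.8 and 69.3 CPM in the cluster without subtype in inhibitor-treated mice and 103 and 79.8 CPM in untreated mice, far under its 477 and 569 CPM in gamma-delta T cells of inhibitor-treated mice and 566 and 503 CPM in those of untreated mice. Of the gamma constant genes, Trgc4 there came nearest to its own level in gamma-delta T cells. The 6 other genes were at 20.02 CPM or less in every mouse of that cluster.

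In NK cells, in which transcripts of Trdc are also known in mice, Trgc4 had 102 and 74.5 CPM in inhibitor-treated mice and 85.6 and 75.9 CPM in untreated mice. Trdc was more uneven, with 12.4 and 85.3 CPM in NK cells of inhibitor-treated mice, against 109 and 42.8 CPM in those of untreated mice. NK cells with a Trdc count numbered 86 of 518 (16.6%), and 12 of them also had a count of a Trgc gene. The median count was 13668 in NK cells with Trdc and 7331 in those without, so depth moved with detection; its part in the 16.6% was not tested. Cd3e, a chain of the CD3 complex, was counted in 13.5% of NK cells and 9.78% of neutrophils.

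Trdc and a gamma constant gene together were counted in 74.7% of gamma-delta T cells. Trdc and Trac together were counted in 32.4% of them. Hashtag doublets were left out and 1248 further cells were removed as likely doublets within a mouse. The part of remaining doublets in the 32.4% was not tested.

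Variable segments were counted in few cells. Trgv2 was found in 12 and 5 gamma-delta T cells of inhibitor-treated mice and in 37 and 47 of untreated mice. Its level was 41.2 and 16.6 CPM in inhibitor-treated mice against 82.9 and 53.9 CPM in untreated mice, and the groups did not overlap (log2 fold −1.23 ± 0.54 SE, edgeR adjusted p = 0.957). Trdv4 was found in 2 and 11 cells of inhibitor-treated mice and in 3 and 7 of untreated mice (15.8 and 53.6 CPM against 6.38 and 12.3 CPM), and it also missed the threshold (1.85 ± 0.80, edgeR adjusted p = 0.957). Of 25 names of V and J segments looked for, 17 had a row and 4 had enough counts to test, with 0 passing in either direction. The names included synonyms of the same gamma V segments, so a name without a row is not always a missing segment.

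The genes most like Trdc over the 12 classes, by Pearson correlation of log2(CPM + 1) among 12118 genes, included 4 more receptor segments. The 8 nearest outside the 10 genes were Trgv2 (r = 0.96), Trgv1 (0.91), Fam174b (0.90), Znrf3 (0.88), Trgv4 (0.88), Prpf6 (0.88), Trdv2-2 (0.88) and Tshz3 (0.84). Among the 10 genes themselves, Trgc4 (0.95), Trgc1 (0.93) and Trgc2 (0.92) stood near Trdc, while 5830411N06Rik (0.67), Abi3bp (0.61), Actn2 (0.44), Tmem176a (0.34), Blk (0.32) and Tmem176b (0.30) did not. These correlations over classes share 1 library and are given with no p.

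5830411N06Rik, listed in RefSeq also as Scart2, encodes a scavenger receptor with cysteine-rich domains that is known from gamma-delta T cells of mice. It lies at chr7:140247284-140300736 on the forward strand, next to its relative Cd163l1 (Scart1). Its level in gamma-delta T cells was 1037 and 717 CPM in inhibitor-treated mice, against 1199 and 1085 CPM in untreated mice. Every other class stayed at or under 27.1 CPM in every mouse, and 84.6% of all its counts lay in gamma-delta T cells. Abi3bp, a protein that binds ABI3 and is found in extracellular matrix, had a like spread: 120 and 144 CPM in inhibitor-treated mice and 199 and 248 CPM in untreated mice, with 84.4% of its counts in these cells. It lies at chr16:56477878-56690135 on the forward strand.

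Actn2, an alpha-actinin best known from the Z-disc of muscle (chr13:12269426-12340760, reverse strand), had 499 and 464 CPM in gamma-delta T cells of inhibitor-treated mice and 463 and 517 CPM in those of untreated mice. CD4 T cells came next, with 127 and 162 CPM in inhibitor-treated mice and 117 and 170 CPM in untreated mice, followed without separation by CD8 T cells, with 80.4 and 101 CPM in inhibitor-treated mice and 68.4 and 118 CPM in untreated mice. The 4668 CD4 T cells held 60.4% of the counts of Actn2 and the 490 gamma-delta T cells 19.8%. The other alpha-actinins had another order: Actn1 was highest in neutrophils (554 and 587 CPM in inhibitor-treated mice, 584 and 509 CPM in untreated mice) and at 9.5 to 17.7 CPM in gamma-delta T cells, and Actn4 had 187 and 255 CPM in gamma-delta T cells of inhibitor-treated mice and 216 and 198 CPM in those of untreated mice, close to its level in CD4 T cells.

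Tmem176a and Tmem176b encode related membrane proteins with channel-like properties, known from dendritic cells and from T cells that make IL-17. Tmem176a spans chr6:48840919-48847071 on the forward strand and Tmem176b chr6:48833818-48841496 on the reverse strand, and the genes overlap by 578 bases. Whether counting used strand is not known here, so reads in the overlap could go to either gene. Their levels over the 12 classes were alike (r = 0.99). In gamma-delta T cells Tmem176a had 573 and 957 CPM in inhibitor-treated mice, against 735 and 589 CPM in untreated mice. For Tmem176b the values there were 939 and 1184 CPM in inhibitor-treated mice and 957 and 877 CPM in untreated mice. Dendritic cells had 197 and 194 CPM of Tmem176a in inhibitor-treated mice and 215 and 201 CPM in untreated mice, and microglia 173 and 158 CPM against 136 and 147 CPM in untreated mice; the mice of these 2 classes did not overlap, while those of CD4 T cells overlapped both. Gamma-delta T cells held 16.8% of the counts of Tmem176a and 17.7% of those of Tmem176b, CD4 T cells 41.9% and 38.3%, and microglia 18.6% and 21.6%.

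Within CD4 T cells, the same 3 genes were higher in cells with an Il17a count. Actn2 had 218 and 241 CPM in CD4 T cells with Il17a of inhibitor-treated mice and 196 and 259 CPM in those of untreated mice. Without Il17a it had 122 and 151 CPM in inhibitor-treated mice and 111 and 155 CPM in untreated mice, lower in each of the 4 mice. Tmem176a had 300 and 293 CPM with Il17a in inhibitor-treated mice and 235 and 303 CPM in untreated mice, and without Il17a 154 and 182 CPM in inhibitor-treated mice and 126 and 152 CPM in untreated mice. Tmem176b followed the same order in 4 of 4 mice. CD4 T cells with Il17a were deeper, at a median count of 9646 against 6888 in those without. The 28 and 125 such cells of inhibitor-treated mice and 59 and 172 of untreated mice were picked by 1 gene, and no test was made.

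Blk is a kinase of the SRC family that signals from the B cell receptor and is known in mice to be needed for IL-17-making gamma-delta T cells (chr14:63372836-63417037, reverse strand). Its level was 348 and 410 CPM in gamma-delta T cells of inhibitor-treated mice and 332 and 327 CPM in those of untreated mice. In B lineage cells it was 218 and 260 CPM in inhibitor-treated mice and 248 and 305 CPM in untreated mice, and the third class, plasmacytoid dendritic cells, had 26.5 CPM or less. B lineage cells held 51.1% of the counts of Blk and gamma-delta T cells 39.8%. By mouse, the gamma-delta share of counts was 25.3% and 26.2% in inhibitor-treated mice and 51.0% and 51.0% in untreated mice. This share depends on cell numbers as well as on level. Inhibitor-treated mice gave 73 and 53 gamma-delta T cells beside 310 and 211 B lineage cells. Untreated mice gave 155 and 209 beside 138 and 212. Other kinases of the family had another order: Lck, which starts T cell receptor signalling, had 144 and 198 CPM in gamma-delta T cells of inhibitor-treated mice and 154 and 213 CPM in those of untreated mice, against 528 to 547 CPM in CD4 T cells. Fyn had 96.6 and 122 CPM in gamma-delta T cells of inhibitor-treated mice and 139 and 158 CPM in those of untreated mice, and Lyn 4.75 and 18.5 CPM against 7.80 and 8.72 CPM.

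**Figure D2:**
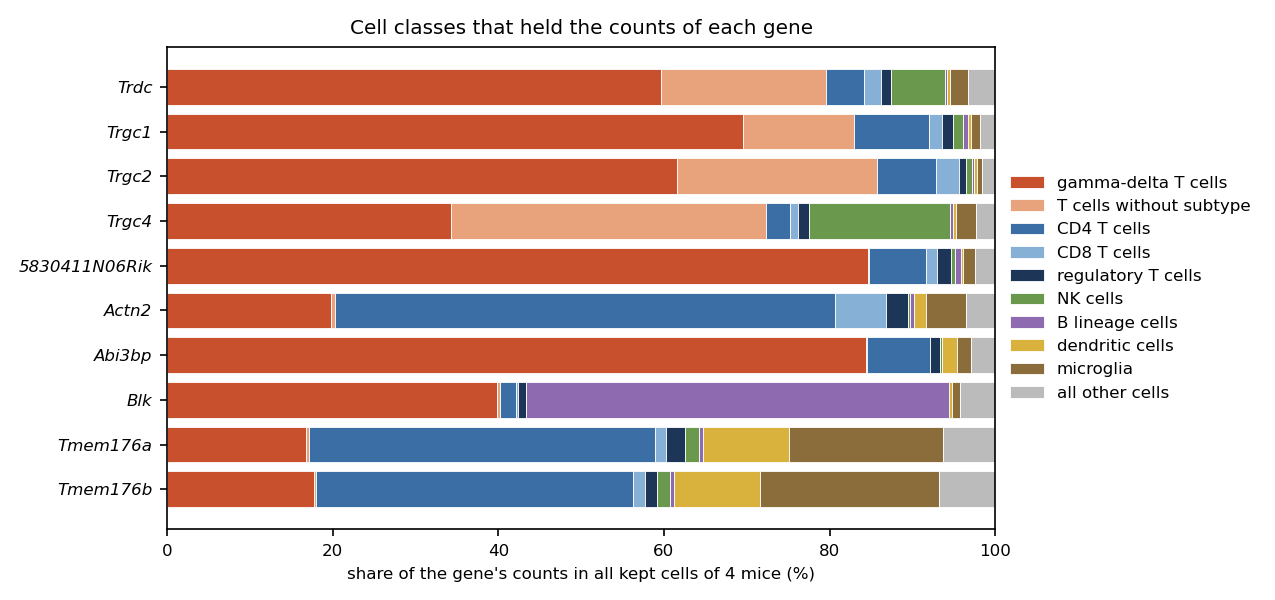
Share of each gene's counts (%) that lay in each cell class, summed over all kept cells of the 4 mice. Gamma-delta T cells hold 84.6% of 5830411N06Rik and 84.4% of Abi3bp, but 16.8% of Tmem176a, and B lineage cells hold 51.1% of Blk.

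The median of the 10 genes was 4.70 ± 0.34 log2 units higher in gamma-delta T cells than in other T cells of the same mouse (log2(CPM + 1), mean ± SD over 4 mice). The difference by gene, averaged over mice, lay between 2.07 (Actn2) and 6.86 (Blk), with 2.49 for Tmem176a and 2.78 for Tmem176b at the low end and 6.85 for 5830411N06Rik at the high end. All 10 genes were higher in gamma-delta T cells in 4 of 4 mice, which the choice of genes fixed.

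Next, the groups were compared within gamma-delta T cells, which are also part of the sums over all cells that chose the genes. Trgc2 had 280 and 231 CPM in inhibitor-treated mice, against 526 and 382 CPM in untreated mice, without overlap (256 ± 34.9 in inhibitor-treated mice and 454 ± 102 in untreated mice, mean ± SD, n = 2 each). It was counted in 52.1% and 39.6% of cells in inhibitor-treated mice and in 65.8% and 57.9% in untreated mice, with 0.251% of neutrophils. Abi3bp averaged 132 ± 16.8 CPM in inhibitor-treated mice and 224 ± 34.8 CPM in untreated mice, and 5830411N06Rik 877 ± 227 CPM in inhibitor-treated mice and 1142 ± 80.8 CPM in untreated mice; both were lower in each inhibitor-treated mouse. Blk, at 379 ± 43.7 CPM in inhibitor-treated mice and 330 ± 3.53 CPM in untreated mice, was higher in each. None passed: the log2 fold of inhibitor-treated over untreated was −0.84 ± 0.22 (SE) for Trgc2, −0.77 ± 0.25 for Abi3bp and −0.39 ± 0.17 for 5830411N06Rik, each at an adjusted p of 0.957 with edgeR, and 0.19 ± 0.18 for Blk (edgeR adjusted p = 0.989). Trdc (0.07 ± 0.13), Trgc1 (−0.04 ± 0.17), Trgc4 (0.04 ± 0.22), Actn2 (−0.04 ± 0.16), Tmem176a (0.20 ± 0.23) and Tmem176b (0.20 ± 0.15) had overlapping groups.

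With edgeR, 0 of the 10 genes and 0 of all 8712 genes tested (0%) passed an adjusted p of 0.05 in gamma-delta T cells. An unadjusted p under 0.05 was reached by 435 genes, and DESeq2 called 1, the neutrophil granule gene Lcn2. Lower in both inhibitor-treated mice than in either untreated mouse were 3 of the 10 genes, against 18.2% of all genes tested, and 1 of the 10 was higher in both, against 16.2% of all. The median log2 fold of the 10 genes was 0.003, and that of all genes 0.003. The exact permutation test of 2 against 2 mice cannot go below 0.333.

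**Figure D3:**
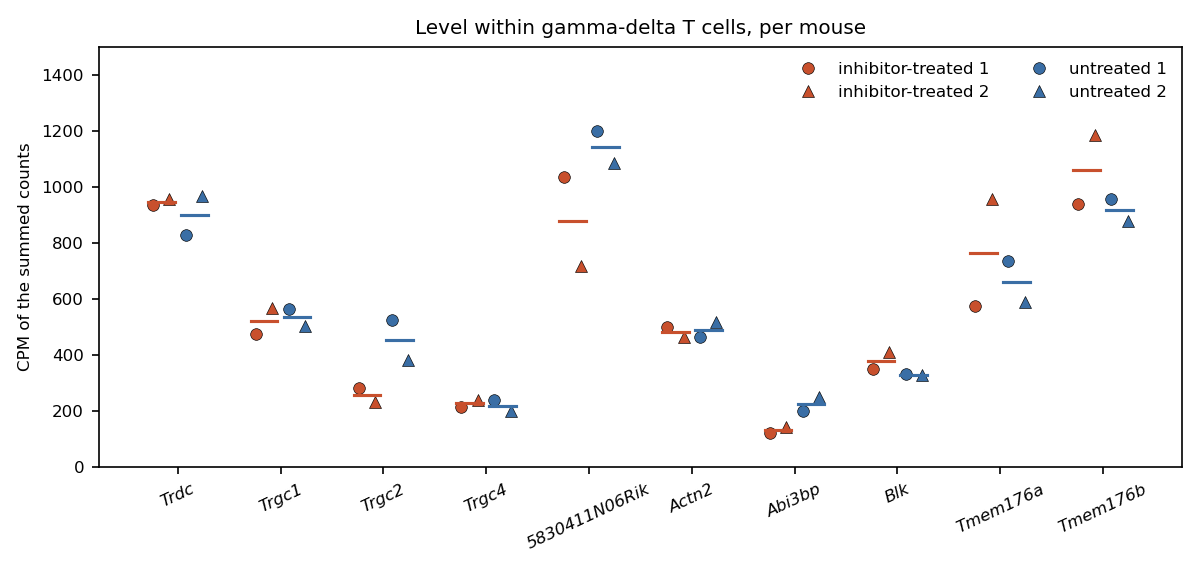
CPM of the summed counts of gamma-delta T cells for each gene, with 1 point per mouse, inhibitor-treated in orange left of untreated in blue, and a line at each group's mean (n = 2 each). Trgc2, Abi3bp and 5830411N06Rik are lower in both inhibitor-treated mice, and the other genes overlap except Blk.

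Single mice moved the edgeR folds in gamma-delta T cells. With 1 mouse left in a group, it was assumed to vary like the others, so only log2 folds are given here. Without inhibitor-treated mouse 1, the log2 fold was −0.69 for 5830411N06Rik, −0.99 for Trgc2 and 0.51 for Tmem176a. Without inhibitor-treated mouse 2, the folds of these genes were −0.16, −0.72 and −0.23, in the same order. They were −0.33, −0.60 and 0.35 without untreated mouse 1, and −0.50, −1.09 and 0.0068 without untreated mouse 2. Inhibitor-treated mouse 2 gave 53 gamma-delta T cells, the fewest of the 4.

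That mouse also had another make-up by scavenger receptor. Gamma-delta T cells with 5830411N06Rik but no Cd163l1 count were 74.0% and 34.0% in inhibitor-treated mice (54 and 18 cells) and 75.5% and 65.6% in untreated mice (117 and 137 cells). Cells with Cd163l1 alone were 9.59% and 45.3% in inhibitor-treated mice (7 and 24 cells) and 4.52% and 10.5% in untreated mice (7 and 22 cells). Neutrophils had a count of Cd163l1 in 0.460% of cells and of 5830411N06Rik in 0.585%. Both genes were counted in 47 of the 490 cells and neither in 57. Cd163l1 had 139 and 911 CPM in gamma-delta T cells of inhibitor-treated mice, against 101 and 281 CPM in untreated mice, so inhibitor-treated mouse 2 stood apart from its partner and the groups overlapped (log2 fold 1.43 ± 0.70 SE, edgeR adjusted p = 0.957).

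**Figure D4:**
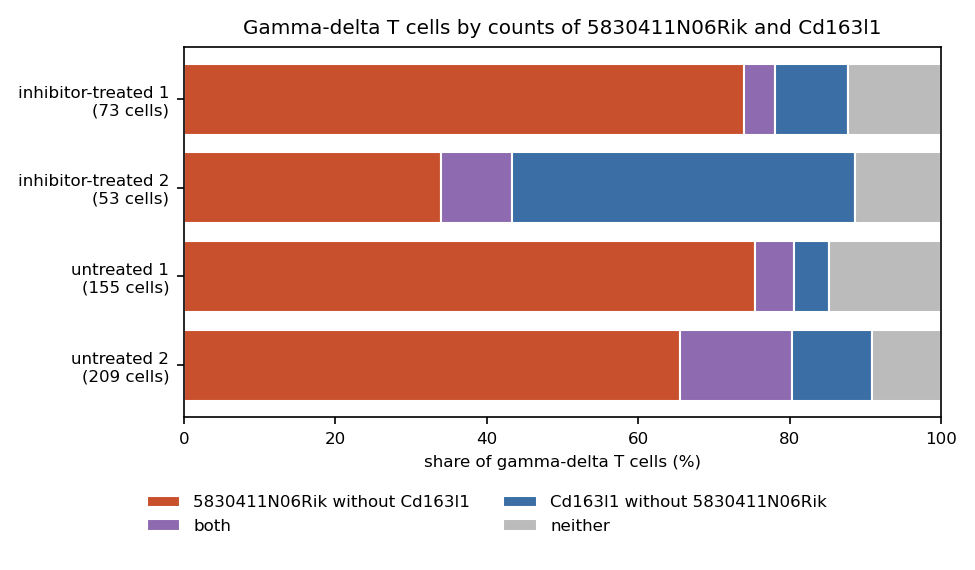
Share of gamma-delta T cells (%) in each mouse by counts of 5830411N06Rik and Cd163l1, with inhibitor-treated mice above untreated mice. Cells with Cd163l1 alone are 45.3% in inhibitor-treated mouse 2 and between 4.52% and 10.5% in the other mice.

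Of the receptor genes, Trgc1 was higher in cells with Cd163l1 alone than in cells with 5830411N06Rik alone (1043 against 455 CPM over all mice). In cells with Cd163l1 alone, Trgc1 had 469 and 958 CPM in inhibitor-treated mice and 1708 and 1049 CPM in untreated mice. Cells with 5830411N06Rik alone had 462 and 311 CPM of Trgc1 in inhibitor-treated mice and 489 and 448 CPM in untreated mice, lower in 4 of 4 mice, by little in inhibitor-treated mouse 1. Trgc2 had 104 and 209 CPM with Cd163l1 alone in inhibitor-treated mice and 256 and 399 CPM in untreated mice. With 5830411N06Rik alone it had 335 and 257 CPM in inhibitor-treated mice and 567 and 394 CPM in untreated mice, higher in 3 of 4 mice but not in untreated mouse 2. Trgc4 had no common order over the mice (219 against 230 CPM over all mice). These cells come from groups of 7 to 137 cells and were picked by single counts, so no test was made. Blk had 608 CPM with Cd163l1 alone and 346 CPM with 5830411N06Rik alone, but the order was turned in inhibitor-treated mouse 1 (208 against 404 CPM).

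The lists of gamma-delta programmes were compared in the same contrast. Of 22 genes of the IL-17 programme, 20 were tested and 0 passed with edgeR in either direction, with a median log2 fold of 0.16. Serpinb1a, an inhibitor of neutrophil-type proteases, had 317 and 460 CPM in inhibitor-treated mice, against 267 and 266 CPM in untreated mice (0.53 ± 0.22 SE, edgeR adjusted p = 0.957). Of 14 genes of the interferon programme, 11 were tested and 0 passed, with a median of −0.05. Il2rb, a chain of the IL-2 and IL-15 receptors, had 382 and 381 CPM in inhibitor-treated mice, against 224 and 306.9 CPM in untreated mice (0.51 ± 0.21, edgeR adjusted p = 0.957). Among the 7 genes of the alpha-beta receptor and CD3 complex, the 3 other kinases of the SRC and SYK families tested, 2 other alpha-actinins and 3 other scavenger receptor genes, 0 passed. Il17a was counted in 30.1% and 39.6% of gamma-delta T cells of inhibitor-treated mice and in 27.1% and 36.8% of those of untreated mice, which overlapped, and in 0.864% of neutrophils.

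Markers of other cells were measured in the same gamma-delta T cells. The 18 neutrophil markers summed to 880 and 615 CPM in inhibitor-treated mice and to 525 and 799 CPM in untreated mice, with S100a8, S100a9, Camp and Fcnb listed at 0. The 12 NK markers summed to 201 and 218 CPM in inhibitor-treated mice and 182 and 251 CPM in untreated mice, with Ncr1 at 0. Of 8 such lists, 2 had groups that did not overlap. Among single genes, the groups did not overlap for 2999 of the 8712 tested. Plasmacytoid dendritic cell markers summed to 218 and 242 CPM in inhibitor-treated mice and to 154 and 177 CPM in untreated mice, and 2 of 11, Klk1 and Cd300c, were at 0. Regulatory T cell markers summed to 418 and 312 CPM in inhibitor-treated mice and to 420 and 485 CPM in untreated mice. Of these, 3 of 6 were lower in both inhibitor-treated mice and 0 higher in both, against 18.2% and 16.2% of all genes tested. Of the 18 neutrophil markers 3 were lower in both and 2 higher, and of the 12 NK markers 3 were lower and 0 higher. The part of all these markers in the differences above was not tested.

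Outside gamma-delta T cells, the genes with enough counts to test were all 10 in other T cells, 5 in NK cells, 3 in dendritic cells and 5 in B lineage cells, and 0 of these passed with edgeR. In other T cells, 6707 cells with 0 of 16734 genes called (0%; 683 at an unadjusted p under 0.05, 19 with DESeq2), the receptor genes had log2 folds of −0.62 ± 0.26 SE for Trdc, −0.85 ± 0.23 for Trgc1, −0.80 ± 0.35 for Trgc2 and −0.83 ± 0.30 for Trgc4, each with an edgeR adjusted p above 0.999. Without untreated mouse 1 these folds were smaller in size, at −0.20 for Trdc, −0.12 for Trgc2 and −0.32 for Trgc4. That of Trgc1 moved less, to −0.67. Among other T cells, the receptor genes were highest in T cells without subtype. That class numbered 58 and 94 cells in inhibitor-treated mice and 227 and 177 in untreated mice. CD4 T cells, the largest class of other T cells, numbered 601 and 1299 in inhibitor-treated mice and 1116 and 1652 in untreated mice. Of all kept cells, not of other T cells, T cells without subtype were 1.06% and 1.91% in inhibitor-treated mice and 5.26% and 3.89% in untreated mice. In dendritic cells (0 of 11424 genes called, 0%; 389 at an unadjusted p under 0.05, 1 with DESeq2, the granule gene Camp), Tmem176a had a log2 fold of −0.12 ± 0.17 SE and Tmem176b of −0.29 ± 0.18. In B lineage cells (0 of 10867, 0%; 864 at an unadjusted p under 0.05, 43 with DESeq2), Blk had a log2 fold of −0.27 ± 0.25. In NK cells 1 of 9898 genes (0.0101%) was called by edgeR and by DESeq2, the neutrophil granule gene Ltf, with 418 at an unadjusted p under 0.05, and Trgc4 had a log2 fold of 0.12 ± 0.32.

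Over all kept cells the genes were lower in inhibitor-treated mice, which is part of how they were chosen. Trdc had 14.5 and 19.8 CPM in inhibitor-treated mice, against 47.4 and 48.1 CPM in untreated mice. For 5830411N06Rik the values were 12.4 and 10.9 CPM in inhibitor-treated mice and 38.1 and 45.5 CPM in untreated mice. All 10 genes were lower in both inhibitor-treated mice than in either untreated mouse, as were 39.8% of all genes tested, with log2 folds between −2.02 (Abi3bp) and −0.36 (Blk). Fewer gamma-delta T cells and less RNA of these genes per cell cannot be told apart in such sums. The sums were also made without gamma-delta T cells, which takes out both at once and so does not separate them. In the remaining cells 5 of the 10 genes were lower in both inhibitor-treated mice, against 39.6% of all genes tested. The remaining cells are part of the sums that chose the genes, so their values are a description too. The remaining cells still included T cells without subtype, which held 19.9% of all Trdc counts and 38.1% of all Trgc4 counts. That class made up 1.06% and 1.91% of cells in inhibitor-treated mice, against 5.26% and 3.89% in untreated mice. Its part in the folds of the remaining cells was not tested.

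**Figure D5:**
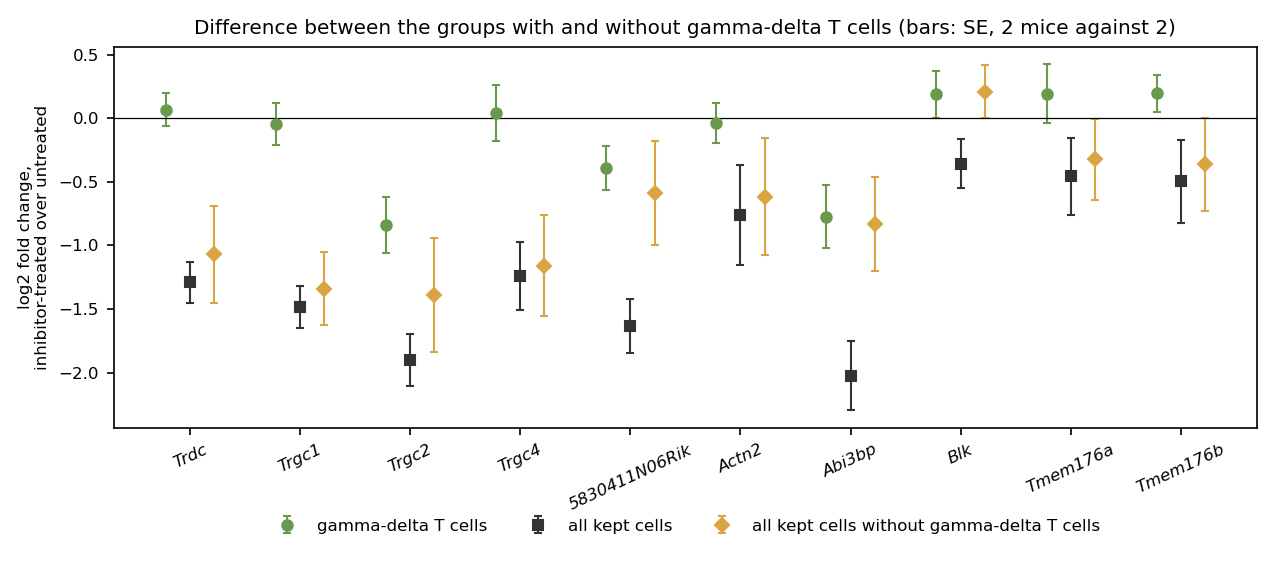
Log2 fold change of inhibitor-treated over untreated mice for each gene in gamma-delta T cells, in all kept cells and in all kept cells without gamma-delta T cells, with bars of 1 SE (2 mice each). In all kept cells the 10 genes lie between −2.02 and −0.36, and in gamma-delta T cells 7 of them lie between −0.04 and 0.20.

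Without gamma-delta T cells, the log2 fold was −0.58 in place of −1.63 for 5830411N06Rik, −0.83 in place of −2.02 for Abi3bp and 0.21 in place of −0.36 for Blk. For the receptor genes it was −1.07 in place of −1.29 for Trdc, −1.34 in place of −1.48 for Trgc1, −1.39 in place of −1.90 for Trgc2 and −1.16 in place of −1.24 for Trgc4. Actn2 (−0.62 and −0.76), Tmem176a (−0.32 and −0.46) and Tmem176b (−0.36 and −0.50) had folds without and with gamma-delta T cells that differed by less than their SE. The folds of Trgc1 and Trgc4 moved about as little, and no such change was tested. Single mice moved the folds without gamma-delta T cells: leaving out 1 mouse, they ranged from −1.57 to −0.61 for Trdc, −1.71 to −1.04 for Trgc1, −1.96 to −0.84 for Trgc2, −1.72 to −0.73 for Trgc4, −1.14 to −0.16 for 5830411N06Rik and −1.41 to −0.10 for Actn2. These ranges overlap, and differences between the genes were not tested. The share of neutrophils, which was 62.5% and 37.5% in inhibitor-treated mice and 24.3% and 19.0% in untreated mice, moved with these sums. EdgeR called 0 of 21172 genes (0%) over all kept cells, with 2145 at an unadjusted p under 0.05 and 444 called with DESeq2, and 0 of 21100 (0%) without gamma-delta T cells, with 2004 and 378. Leaving out inhibitor-treated mouse 2, the edgeR counts were 2234 and 1763, and leaving out untreated mouse 1 they were 2 and 2, both times the immunoglobulin genes Ighg1 and Ighg2c.

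Promoter windows were on hand for 4 of the 10 genes, 250 bases before to 50 after an annotated start (RefSeq, GRCm38). They were searched on both strands for AGGTCA, the half-site that RORγt and other nuclear receptors can bind. It was found in 2 of the 4, 5830411N06Rik and Actn2, whose 200 bases farthest upstream are shown because they hold it, in capitals. Windows of Tmem176a and Tmem176b did not contain these letters. Counted by window, 4 of the 9 windows of these genes did, some of which overlap, against 16.3% of all 32851 windows of that length.
5830411N06Rik, chr7:140247051-140247250, forward strand: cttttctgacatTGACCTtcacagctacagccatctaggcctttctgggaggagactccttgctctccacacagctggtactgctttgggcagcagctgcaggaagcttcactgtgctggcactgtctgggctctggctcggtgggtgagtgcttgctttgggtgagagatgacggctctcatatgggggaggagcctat
Actn2, chr13:12340783-12340982, reverse strand: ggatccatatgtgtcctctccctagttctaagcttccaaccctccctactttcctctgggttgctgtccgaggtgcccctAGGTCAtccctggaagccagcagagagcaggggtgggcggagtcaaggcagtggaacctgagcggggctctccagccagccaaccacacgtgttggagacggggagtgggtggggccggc
The match shown lay 238 bases before the first start of 5830411N06Rik, on the reverse strand, and 170 bases before the start of Actn2. Windows 2 and 3 of 5830411N06Rik, which overlap, held another match on the reverse strand, not shown. It lay after their starts (at −43 and −40 bases before the start) and was the same stretch in both. A match is a description of letters and says nothing of binding.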

How the data were processed

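The authors deposited whole-number counts per gene and cell, not normalized, on GRCm38 (build per the submitters' processing notes). Aligner, counting tool and strand setting: not given in the sources used here. Of 25461 columns, 3943 with several hashtags were left out, then 1014 cells over 20% mitochondrial counts and 1248 likely doublets. No per-sample column was left without a hashtag mapping (0 unused). Log counts per 10000 of 2000 variable genes gave 40 components, 20 neighbours and Leiden clusters at resolution 1 (leidenalg 0.10.2, igraph 0.11.9, numpy 2.4.6, python 3.11.15), named after the marker list with the largest share of its markers raised and found in at least 25% of cells. T cells were the exception and were tried first, for clusters with a large enough share of T cell markers raised. Their subtype was the first to pass in the order regulatory, gamma-delta, CD8 and CD4. A name needed 3 such markers, and for a T cell subtype its defining gene in at least 25% of cells. T cells without subtype had Trdc in 23.2% of cells and 2 gamma-delta markers raised. A cluster with more markers of another class among its 10 leading genes stayed unnamed. Class names mean cells that resemble a class in those markers. The 10 genes, the gene lists and the markers were chosen with earlier results of these data known. Named genes are the 10, list genes by p, the 8 most like Trdc and family partners.

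Counts were summed per mouse and class and fitted with edgeR 4.0.16 (R 4.3.3; filterByExpr, TMM, glmQLFit, glmQLFTest), with Benjamini-Hochberg adjustment over all genes of a fit at 0.05; DESeq2 1.42.0 was an alternative. The fit was tested on simulated data. Replicate numbers did not pair mice (correlations of −0.04 to 0.02).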

Additional observations from a re-analysis of the deposited data

Results flagged for a closer look

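The groups of Blk lay apart in opposite directions in 2 cell populations. In gamma-delta T cells both inhibitor-treated mice were above both untreated mice (log2 fold 0.19, 348 and 410 CPM against 332 and 327 CPM). In other T cells both inhibitor-treated mice were below both untreated mice, with a log2 fold of −0.59 ± 0.47 SE at 2.28 and 1.15 CPM against 2.43 and 2.53 CPM, beside 0.281 to 1.30 CPM in neutrophils. The difference between the populations was not tested, and Blk passed the edgeR threshold in neither.

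Tmem176a also lay apart in opposite directions, in NK cells and in dendritic cells. NK cells had 55.9 and 71.3 CPM in inhibitor-treated mice, against 35.9 and 41.1 CPM in untreated mice (log2 fold 0.75 ± 0.38 SE). Dendritic cells had 197 and 194 CPM in inhibitor-treated mice, against 215 and 201 CPM in untreated mice (−0.12 ± 0.17). Neither passed the edgeR threshold, and the difference between the classes was not tested.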

How the results depend on the processing

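Each of the 10 genes stayed lower in all kept cells of inhibitor-treated mice under every alternative run. That lower level was used to choose the genes, so its staying is a description and supports nothing. DESeq2 called 1 gene in gamma-delta T cells, 19 in other T cells, 1 in dendritic cells, 43 in B lineage cells, 444 in all kept cells and 378 without gamma-delta T cells. With no filter on low counts edgeR called 8, 90, 30, 23 and 179 genes in gamma-delta T cells, other T cells, NK cells, dendritic cells and B lineage cells, and Trgc2 in gamma-delta T cells then had an adjusted p of 0.042; the median of all genes there was −0.21. Leaving out 1 mouse gave 1 to 303 calls in gamma-delta T cells, 1 to 13 in other T cells, 0 to 22 in NK cells, 0 to 52 in dendritic cells, 0 to 623 in B lineage cells, 0 to 2234 in all kept cells and 0 to 1763 without gamma-delta T cells. The replicate block gave 5 calls in other T cells, 6 in NK cells and 4 in B lineage cells, and 0 in gamma-delta T cells; same-numbered mice share only a number. At most 10% mitochondrial counts gave 1 call in other T cells, and keeping doublets 0 in NK cells. The median difference of the 10 genes from other T cells was 3.86 on log2(CPM + 10).

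Directions in gamma-delta T cells turned for log2 folds near 0. Without the filter these were Trdc (−0.014) and Trgc4 (−0.036). Leaving out 1 mouse, the log2 fold ranged from −0.054 to 0.14 for Trdc, −0.19 to 0.073 for Trgc1, −0.12 to 0.16 for Trgc4, −0.13 to 0.0071 for Actn2 and −0.23 to 0.51 for Tmem176a. In all kept cells without gamma-delta T cells, it ranged from −0.88 to 0.082 for Tmem176a and from −1.04 to 0.10 for Tmem176b. The causes were not tested. The 53 to 209 gamma-delta T cells per mouse and 2 mice per group limit the precision.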
